A study of Sus scrofa with 6 samples.

Results

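The centromere-side ends of the acrocentric pig chromosomes 13 to 18 were taken as the 30000 windows of 1 kb that lie in the first 5 Mb of these 6 chromosomes, out of 2262470 windows on the placed chromosomes (1.33%). The members were chosen by position only, and 27011 of them held at least 1 fragment. Methylated DNA immunoprecipitation followed by sequencing (MeDIP-seq) had been carried out on the longissimus dorsi, a back muscle, of female Jinhua pigs. The MA group held 3 middle-aged animals of 7 years and the Young group 3 animals of 0.5 years, with 1 library per animal and no treatment. A library held between 34801285 and 44341673 fragments, of which 1.27% to 1.32% fell in the member windows. Levels are given as fragments per kb after scaling each library to the mean total of 39605113 fragments.

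An acrocentric chromosome has its centromere close to one tip, so that its starting end borders the repeat-rich DNA around the centromere and the opposite end carries the gene-rich tip of the long arm. DNA around centromeres is heavily methylated in mammalian somatic cells, but much of it consists of satellite repeats that genome builds leave out or that reads cannot be placed in. In MeDIP an antibody against 5-methylcytosine pulls down methylated fragments, so the number of fragments follows the number of methylated CpG sites in a stretch and not the share of its sites that are methylated. No unprecipitated input library was used here, so copy number, the ease of placing reads and methylation cannot be told apart in a level. Muscle tissue holds several cell types, and a change in their shares cannot be told apart from a change within a cell type.

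The low coordinates were checked against gene order, since the sequence of the build behind the files (Sscrofa9.2) was not used here. Of the 23 genes that the study pairs with intervals in the member windows, 19 were found by symbol in RefSeq's table of the later assembly Sscrofa11.1, all 19 on the same chromosome. Each was among the first 31 protein-coding genes counted from the low-coordinate end, and VIPR2 was number 1 of 419 on chromosome 18. The 19 genes lie on chromosomes 14, 15, 16 (TRIO only) and 18, for which low coordinates are thus the same tip in both builds, and chromosomes 13 and 17 had no listed gene to check. No satellite or centromere annotation was used, so the side of the centromere rests on the rule.

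The 6 ends differed widely in level. The end of chromosome 18 had 47.1, 45.9 and 39.6 fragments per kb in MA 1 to 3 and 42.6, 46.9 and 47.6 in Young 1 to 3. The end of chromosome 14 followed with 18.7, 19.3 and 19.9 in MA and 18.9, 18.5 and 18.2 in Young. In every library chromosome 18 was thus far above all other ends. The end of chromosome 16 had 12.1, 12.1 and 13 in MA and 12.7, 12.1 and 12 in Young, and that of chromosome 13 had 11, 11.1 and 11.9 in MA and 12.2, 11.4 and 11.3 in Young. The lowest levels were those of chromosome 17, with 7.97, 7.84 and 8.67 in MA and 8.64, 8.19 and 8.03 in Young, and of chromosome 15, with 7.20, 7.24 and 7.89 in MA and 8.02, 7.60 and 7.53 in Young. The order 18, 14, 16, 13, 17 and 15 was the same in 6 of 6 libraries for each pair of neighbours. The step from chromosome 18 to 14 was 2.37-fold (log2 1.25 ± 0.14, SD, n = 6), and that from 14 to 16 was 1.53-fold. The steps from 16 to 13 and from 17 to 15 were only 1.07-fold and 1.08-fold. All 5 steps had an exact two-sided sign-flip p of 0.031, which is the smallest p that 6 libraries allow and also the value after Benjamini-Hochberg adjustment over the 5 steps. The order was itself taken from the mean levels of these same libraries. This p thus describes agreement among the libraries and does not tell large steps from small ones.

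**Figure D1:**
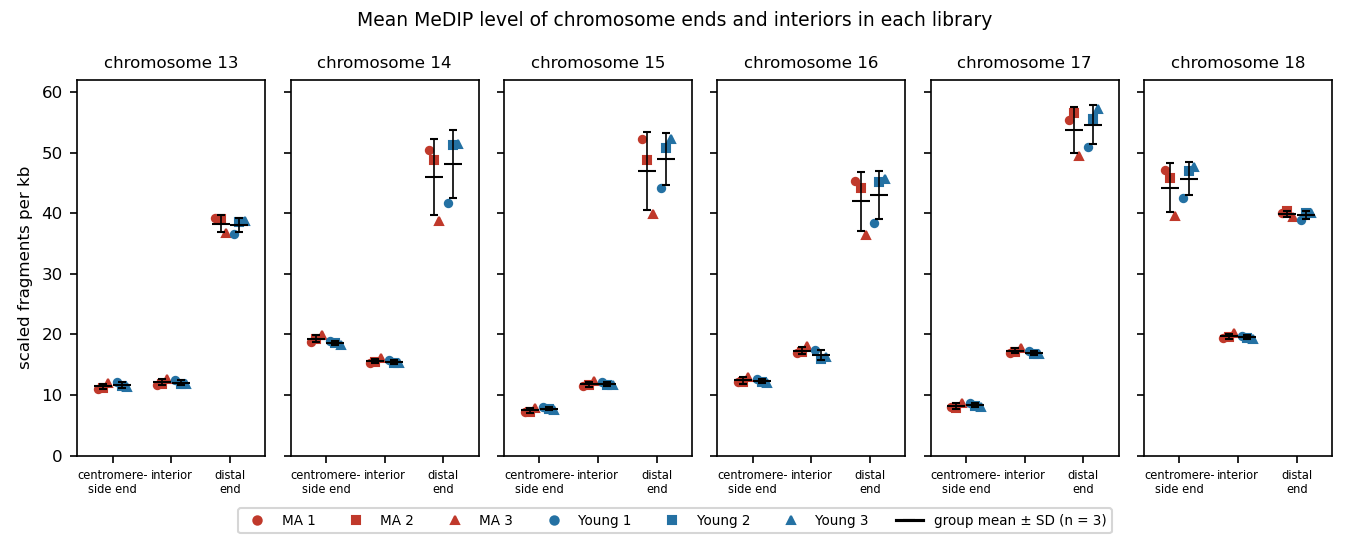
Mean MeDIP level (scaled fragments per kb, y axis) of the centromere-side end, the interior and the distal end of chromosomes 13 to 18 (x axis). Points are the 6 libraries, and bars give group means with SD (n = 3). Chromosome 18 has its centromere-side end between 39.6 and 47.6, whereas the other 5 centromere-side ends lie at or below 19.9 and far below their distal ends.

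Each end was next compared with the interior of its own chromosome, which is everything more than 5 Mb from either tip. The ends of chromosomes 13, 15, 16 and 17 were lower than their interiors, and those of chromosomes 14 and 18 were higher. On chromosome 17 the end reached 0.481 of the interior level (log2 -1.06 ± 0.04, SD, n = 6), on chromosome 15 0.642, on chromosome 16 0.727 and on chromosome 13 0.954. On chromosome 14 it was 1.22 times the interior level (log2 0.28 ± 0.02), and on chromosome 18 it was 2.29 times the interior level (log2 1.20 ± 0.13). Each direction was seen in 6 of 6 libraries (exact two-sided sign-flip p = 0.031, adjusted over 6 chromosomes 0.031). Averaged over the 6 ends the log2 difference was -0.12 ± 0.02 with the same p, but this mean joined opposite directions, and it turned to 0.19 when medians over windows replaced means. The medians also turned the differences on chromosome 13 to 0.07 and on chromosome 16 to 0.13. With medians chromosome 14 was at 0.538, chromosome 15 at -0.381, chromosome 17 at -0.980 and chromosome 18 at 1.757. The difference of chromosome 16 rested largely on 10 windows of its interior with more than 1000 fragments, since without them it was -0.06 rather than -0.46, still lower in 6 of 6 libraries. With an end of 1 Mb, chromosome 14 was at -0.06 rather than above its interior.

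Against the distal ends, the outer 5 Mb at high coordinates, the separation was larger. The distal ends had mean levels of 38.1 on chromosome 13, 47.1 on 14, 48 on 15, 42.5 on 16, 54.2 on 17 and 39.8 on 18. The centromere-side end held 0.152 of the distal level on chromosome 17, 0.159 on 15, 0.291 on 16, 0.301 on 13 and 0.404 on 14. All 5 were lower in 6 of 6 libraries, with an exact sign-flip p of 0.031. Their order depended on the length of the ends, since with ends of 1 Mb the log2 difference of chromosome 15 moved from -2.66 to -1.05 and that of chromosome 13 from -1.73 to -2.82. It also changed with medians over windows, at -3.333 on chromosome 17, -2.130 on 16, -2.110 on 15, -1.978 on 13 and -1.554 on 14. The distal end of chromosome 15 held 11 windows over 1000 fragments, and its median window had 18.5. Chromosome 18 was the exception, with a centromere-side end 1.13 times its distal end (log2 0.17 ± 0.09, range 0.01 to 0.25 over the 6 libraries, exact p = 0.031). That excess had an exact p of 0.0625 with ends of 1, 2 or 10 Mb and when empty windows were left out. The 24 ends of chromosomes 1 to 12, which have a pair of arms each, spanned 14.9 to 60.2 fragments per kb. The end of chromosome 18, at a mean of 45.0, lay within that range, and that of chromosome 14, at 18.9, lay near its lower limit. The ends of chromosomes 13, 15, 16 and 17, at means of 11.5, 7.58, 12.3 and 8.22, lay below every one of those 24 ends. In level the end of chromosome 18 was thus like the distal ends, which spanned 38.1 to 54.2, and unlike the other member ends. Whether the low coordinates of chromosome 18 are its centromere side was not tested.

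The ends also differed in how their windows were filled. Of the 5000 windows of the chromosome 18 end, 988 (19.8%) had 80 or more scaled fragments and 1208 (24.2%) had 40 to 80. In chromosome 15 the corresponding counts were 7 and 117 windows, and 2349 windows (47.0%) had a level above 0 and under 5. Chromosome 17 was alike, with 2296 windows (45.9%) in that low class and 15 windows at 80 or more. The median window held 32.6 fragments at the end of chromosome 18, 11.4 at 14, 6.55 at 13, 6.22 at 16, 4.06 at 15 and 4.04 at 17, against 9.07 over all placed windows. The higher mean of chromosome 18 was thus spread over many windows, and no member window exceeded 1000 fragments. Windows without any fragment made up 14.3% of the end of chromosome 14, 10.5% of 15, 10.4% of 16, 10.1% of 17, 7.38% of 18 and 7.12% of 13. The longest empty run was 51 kb, on chromosome 14. Whether empty windows are assembly gaps was not tested, since the sequence of the build was not used.

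**Figure D2:**
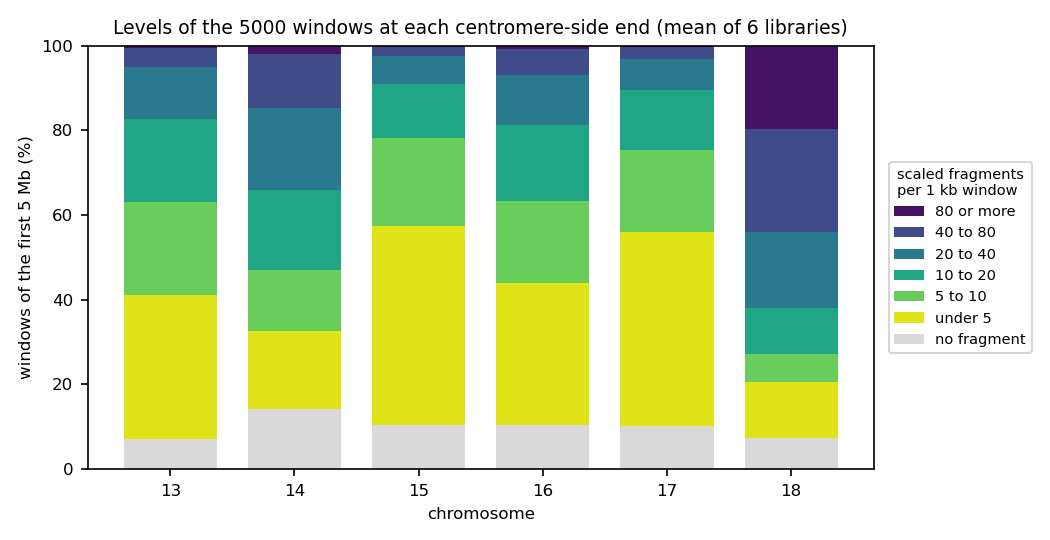
Share of the 5000 windows of each centromere-side end (y axis, %) by their mean level over the 6 libraries, for chromosomes 13 to 18 (x axis). On chromosome 18, 19.8% of windows reach 80 or more scaled fragments, whereas on chromosomes 15 and 17 the class above 0 and under 5 takes 47.0% and 45.9%.

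Levels also changed with distance from the tip. In 100 kb bins with at least 80 of their 100 windows filled, chromosome 18 was highest between 400001 and 500000 (97.9, 91.4 and 60.2 fragments per kb in MA and 71.0, 97.9 and 102 in Young). This bin lies between listed intervals of ESYT2, a tether of the endoplasmic reticulum to the plasma membrane, and DNAJB6, a co-chaperone of the HSP40 family that is mutated in a form of limb-girdle muscular dystrophy. The lowest such bin of chromosome 18 lay between 3800001 and 3900000, at 5.24, so that levels inside this single end spanned from 5.24 to 86.8. Chromosome 17 ranged from 2.26 (3400001 to 3500000) to 20.6 (700001 to 800000) and chromosome 15 from 4.07 (600001 to 700000) to 14.9 (200001 to 300000). Chromosome 16 had its highest bin at 3100001 to 3200000, with 36.0, which begins 20045 bp after the listed interval of TRIO. Its lowest bin, at 2300001 to 2400000, had 3.67. The highest bins of chromosomes 13 (2900001 to 3000000) and 14 (1100001 to 1200000) had 28.9 and 38.8, and the lowest had 5.80 (1 to 100000) and 4.93 (900001 to 1000000).

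**Figure D3:**
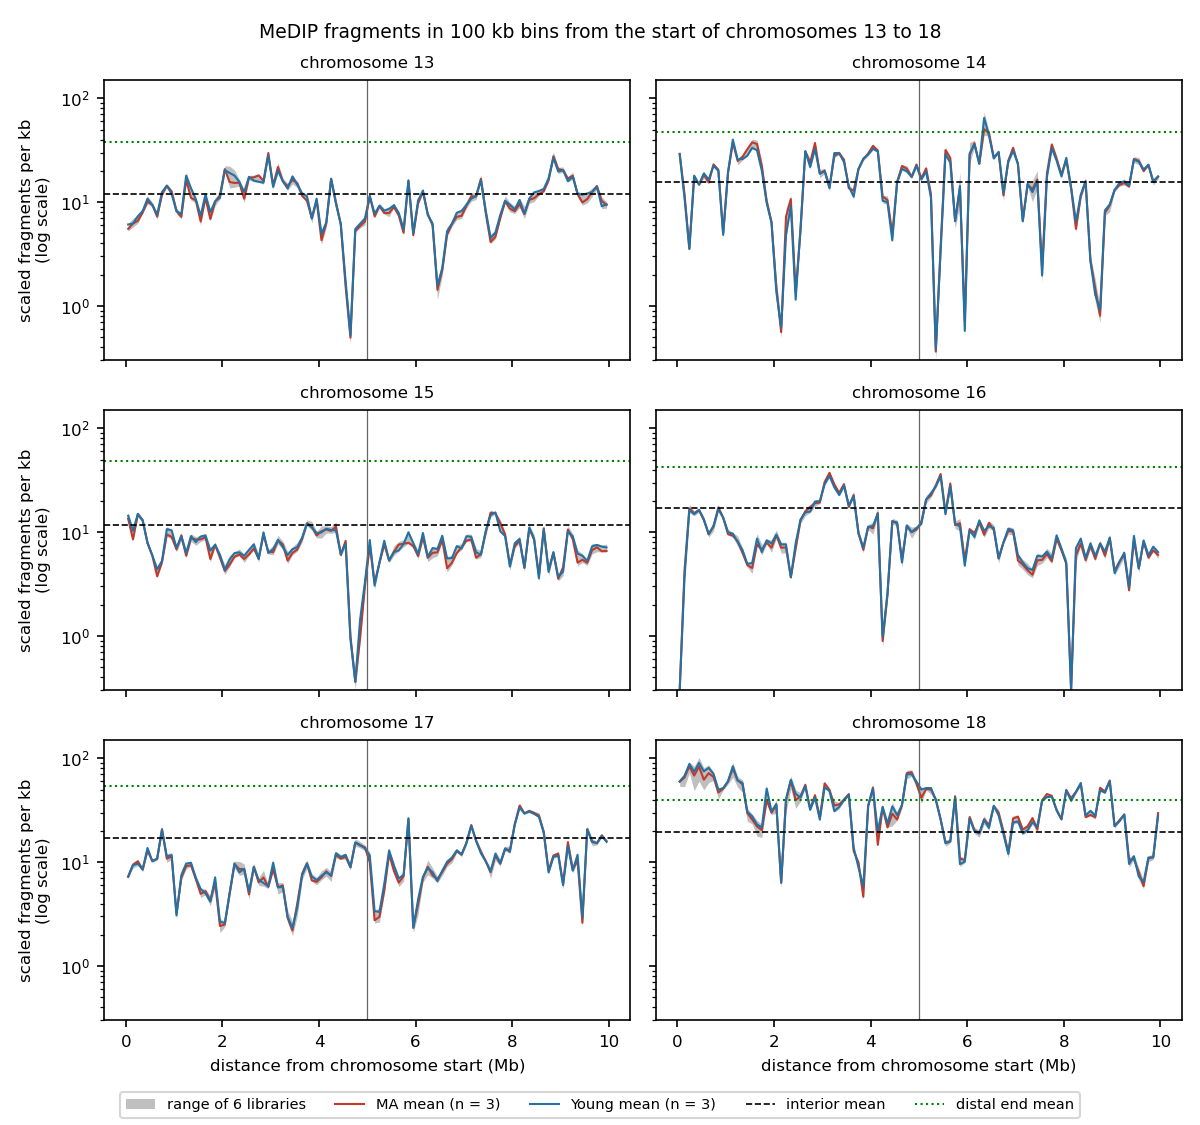
MeDIP level in 100 kb bins (scaled fragments per kb, log y axis cut at 0.3) against distance from the chromosome start (Mb) for chromosomes 13 to 18. Lines are group means (n = 3), grey is the range of the 6 libraries, the dashed line is the interior mean, the dotted line the distal mean and the vertical line marks 5 Mb. Chromosome 18 stays mostly above its interior mean of 19.6, whereas chromosomes 15 and 17 stay mostly below theirs, and the MA and Young lines nearly coincide.

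The first megabase was compared with the fifth on each chromosome. The first megabase was higher on chromosome 18 (68.4 against 42.2 fragments per kb, 1.61-fold), on 15 (9.42 against 6.18, 1.52-fold), on 13 (9.32 against 6.39, 1.46-fold) and on 16 (11.7 against 9.26, 1.26-fold). On chromosome 14 it was lower (15.9 against 18.8, 0.845-fold). Empty windows bore on these sizes, as without them the log2 difference fell from 0.61 to 0.25 on chromosome 15 and from 0.55 to 0.30 on chromosome 13. On chromosome 17 the values were 11.3 and 11, and their order turned when empty windows were left out (log2 0.04 with them and -0.02 without). All 6 had an exact sign-flip p of 0.031 by means with every window counted. With medians over windows chromosome 17 was at 0.025 on the log2 scale with an exact p of 1, whereas the other 5 kept their direction and p. The mean over the 6 ends was a log2 difference of 0.33 ± 0.04 (SD, n = 6).

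The highest single windows differed less between ends than the means did. The highest window reached 262 fragments on chromosome 18 (597001 to 598000), 180 on 14 (1689001 to 1690000), 152 on 16 (4792001 to 4793000), 145 on 17 (515001 to 516000), 143 on 13 (3413001 to 3414000) and 118 on 15 (1177001 to 1178000). On chromosome 18 this window held 265, 329 and 151 fragments in MA and 155, 301 and 371 in Young. MA 3 and Young 1 were the lowest in it, so that its spread did not follow age. The chromosome 15 window held 119, 128 and 129 in MA and 111, 105 and 114 in Young, so that all MA libraries lay above all Young libraries.

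The libraries MA 3 and Young 1 stood apart from the other 4 in these regions. They were the highest pair at the ends of chromosomes 13, 15, 16 and 17 and the lowest pair at the end of chromosome 18 and at each distal end of chromosomes 13 to 18. At the end of chromosome 18, MA 3 lay 0.18 and Young 1 lay 0.07 below the mean of the 6 libraries on the log2 scale. Over all member windows with a mean of 80 or more, MA 3 had 0.856 and Young 1 had 0.921 of the window mean, against 1.045 to 1.081 in the other 4. In windows at 5 to 10, MA 3 and Young 1 had 1.073 and 1.070. The same contrast was present over all placed windows (0.898 and 0.929 at 80 or more). As 1 library of each age was concerned, the contrast widened the spread within both groups. Without this pair the end of chromosome 18 was still 1.27 above its interior and 0.23 above its distal end on the log2 scale.

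**Figure D4:**
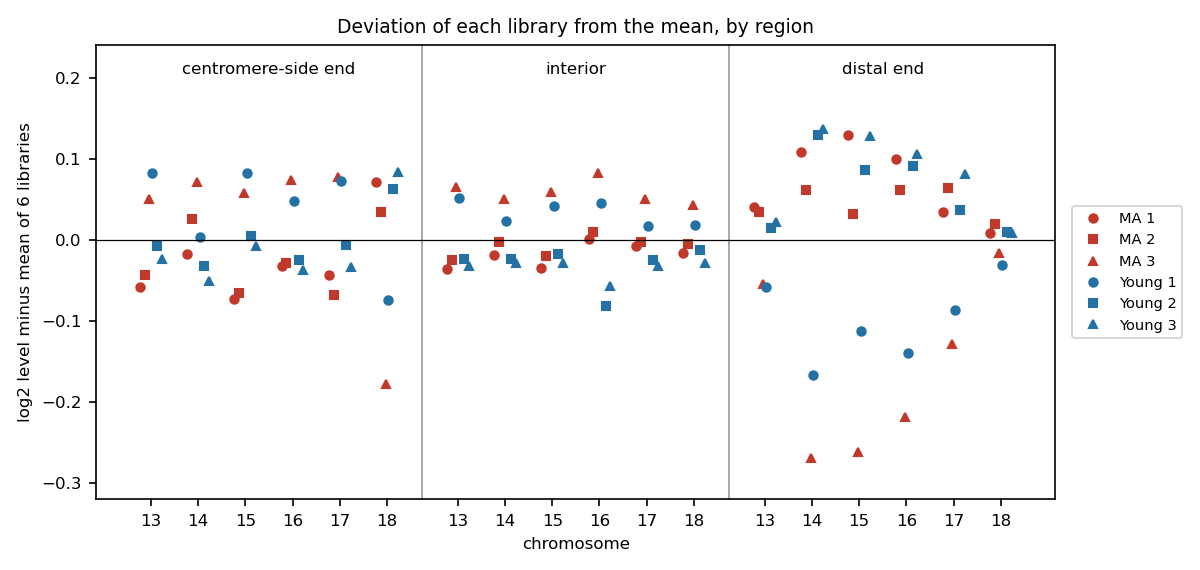
Log2 level of each library minus the mean of the 6 libraries (y axis) for the centromere-side end, interior and distal end of chromosomes 13 to 18 (x axis). MA 3 and Young 1 (red triangles and blue circles) are the highest pair at the ends of chromosomes 13, 15, 16 and 17 and the lowest pair at the end of chromosome 18.

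The levels of the ends were then compared between ages. The mean log2 difference, MA minus Young, over the 6 ends was -0.02 ± 0.03 (SD over libraries within groups, exact two-sided permutation p = 0.500). Chromosome 15 had 7.44 ± 0.386 in MA and 7.72 ± 0.263 in Young (log2 -0.05, exact p = 0.30). Chromosome 14 had 19.3 ± 0.591 in MA and 18.6 ± 0.355 in Young (log2 0.05, exact p = 0.200), and chromosome 18 had 44.2 ± 4.02 and 45.7 ± 2.68 (log2 -0.05, exact p = 0.60). The groups overlapped at all 6 ends, and every value adjusted over the 6 chromosomes was 0.700. A design of 3 against 3 cannot give an exact p below 0.1. The mean over the 6 ends was larger, and the groups no longer overlapped, with ends of 1 Mb (-0.038), ends of 2 Mb (-0.040) or TMM scaling factors (-0.044), each with that smallest p of 0.1. With TMM factors the groups also came apart at the ends of chromosomes 13 (-0.062), 15 (-0.082) and 17 (-0.050), and with medians over windows at those of 15 (-0.313) and 16 (-0.155), all lower in MA. With 10 Mb the end of chromosome 14 came apart in the opposite direction (0.027). Single ends also came apart on chromosome 13 with 2 Mb (-0.072) and on 15 with 1 Mb (-0.093).

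Relative to its own interior, the end had the 3 MA libraries below the 3 Young libraries on chromosomes 13, 15 and 16, and above them on chromosome 14. On chromosome 15 the log2 ratio of end to interior was -0.678, -0.685 and -0.640 in MA and -0.599, -0.616 and -0.618 in Young. On chromosome 13 it was -0.089, -0.086 and -0.083 in MA and -0.038, -0.052 and -0.059 in Young. On chromosome 14 it was 0.284, 0.311 and 0.304 in MA against 0.263, 0.275 and 0.260 in Young. These separations were of small size, between 0.03 and 0.06 on the log2 scale, and had the smallest exact p that the design allows, 0.1 (0.150 after adjustment over the 6 chromosomes), which does not reach 0.05. The separation of chromosome 16 (-0.05) rested on the same 10 interior windows, without which it was 0.006, and the groups overlapped with repeated intervals counted once (-0.014). On chromosomes 17 (-0.05) and 18 (-0.06) the groups overlapped. The mean over the 6 ends was -0.04 ± 0.01 (exact p = 0.1, groups not overlapping). With medians over windows the groups overlapped in this mean (-0.049, exact p = 0.4) and on chromosomes 13 (0.010), 15 (-0.158) and 16 (-0.101). On chromosome 14 the groups stayed apart with medians, at a larger difference of 0.138 (exact p = 0.1). They also overlapped on chromosome 14 with ends of 1, 2 or 10 Mb, on chromosomes 13 and 16 with ends of 1 Mb, and on 16 with only intervals of 200 to 300 bp. Measured the same way, none of the 24 ends of chromosomes 1 to 12 and none of the 6 distal ends of chromosomes 13 to 18 kept the groups apart. Their median differences were -0.05 and -0.06, against -0.05 at the 6 member ends, so the differences were alike in size. MA 3 and Young 1 were the lowest pair at all these other ends except the low-coordinate end of chromosome 10, where they were the highest. With 1 library of each age in that pair, the groups had to overlap at each of them. The overlap thus cannot tell whether a separation is particular to the member ends.

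Single windows were then tested for age with limma across the whole genome on log2(scaled count + 1), keeping windows with a mean of at least 10. Of the 30000 member windows 12301 passed this filter, from 1093 on chromosome 15 to 3643 on chromosome 18. At a limma adjusted p below 0.01, 3 member windows were called (0.0244% of those tested), all higher in MA and all on chromosome 18, against 25 of 951542 windows over the genome (0.00263%). At an adjusted p below 0.05, 19 members were called (0.154%), 8 lower and 11 higher in MA, against 209 windows in all (0.0220%). Of these 19, 14 were on chromosome 18, 3 on chromosome 15 and 2 on chromosome 14, and their absolute log2 fold changes were 1.65 or more. Many of these windows had a mean under 10 in their lower group and so passed the filter only through the group where they were high. This was the case for 2 of the 3 members and 22 of the 25 windows called at 0.01, and for 10 of the 19 members and 149 of the 209 windows called at 0.05, so these counts and shares are descriptions only. All MA libraries lay below all Young libraries in 934 member windows (7.59%, against 5.85% of all tested windows) and above in 1069 (8.69%, against 7.51%). An unadjusted p below 0.05 was seen in 1365 members (11.1%, against 7.32%), and the share ran from 6.67% on chromosome 17 and 6.75% on chromosome 16 to 12.3% on chromosome 15 and 16.3% on chromosome 18. Among windows with a mean of at least 30, the share was 15.3% of 2618 on chromosome 18 and 17.9% of only 218 on chromosome 15. It was 11.7% on chromosome 14, 8.62% on 13, 6.38% on 16 and 5.38% on 17. Over all such members it was 12.6%, against 7.58% of all such windows. The median log2 fold change of the tested members was -0.004, against 0.017 over all tested windows.

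The window with the lowest adjusted p was on chromosome 18 at 4264001 to 4265000. It held 121, 114 and 121 scaled fragments in MA and 0.912, 1.04 and 0 in Young (log2 fold change 6.25, SE 0.335, limma adjusted p = 0.000301). In unscaled fragments this was 365 in the 3 MA libraries and 2 in the 3 Young libraries, a ratio of 175 (95% exact interval 48 to 1447, counting error only). The neighbouring windows had no contrast of this size. The one on the low side had the same direction without overlap, with 68.8, 57.8 and 50.1 in MA and 44.7, 43.8 and 42.1 in Young. The one on the high side had means of 22.2 in MA and 23.9 in Young. The 136, 111 and 118 unscaled fragments in MA 1 to 3 were all distinct intervals, with 120, 90 and 89 distinct start positions. With a Young mean of 0.652, the window passed the filter on low counts only through MA. The window lies between intervals listed with BAGE2, 14208 bp after one and 20411 bp before the next, and holds no listed interval itself.

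A second window, at 4714001 to 4715000 on chromosome 18, lay among the intervals listed with PRKAG2, the gene of a regulatory gamma subunit of the energy sensor AMP-activated protein kinase, and holds one of them. It had 71.5, 80.5 and 64.4 fragments in MA and 12.8, 10.4 and 10.2 in Young (log2 fold change 2.59, SE 0.210, limma adjusted p = 0.00511). The next windows had 34.4 and 30.6 on the low side and 43.6 and 36.9 on the high side, in MA and Young respectively, and the groups overlapped in both. Farther out, the window at 4718001 had all MA above all Young (41.1, 37.1 and 37.9 against 21.9, 25.0 and 22.8). The window at 4711001 had all MA below (83.1, 78.4 and 58.3 against 130, 108 and 104). The last window called at this threshold, at 3751001 to 3752000, had 39.3, 43.3 and 28.6 fragments in MA and none in any Young library (limma adjusted p = 0.00745), and passed the filter only through MA. Taking 3 fragments over the Young group as the 95% limit that a count of 0 allows, MA was at least 36.4-fold higher. This bound takes the MA level as exact and covers counting error only, not variation between animals. The fitted log2 fold change of 5.23 depends on the added 1 and is no bound. The nearest intervals of the list as held here lie 63440 bp before and 497685 bp after this window. The groups overlapped in the windows directly on either side of it. Near it, the windows at 3749001 (6.25, 5.16 and 7.16 against 0, 0 and 0) and 3754001 (13.4, 7.22 and 13.3 against 0.912, 0 and 2.28) also had all MA above all Young. Both had a mean under 10 over the 6 libraries, so the filter left them out of the test. In the other windows within 5 kb the groups overlapped.

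**Figure D5:**
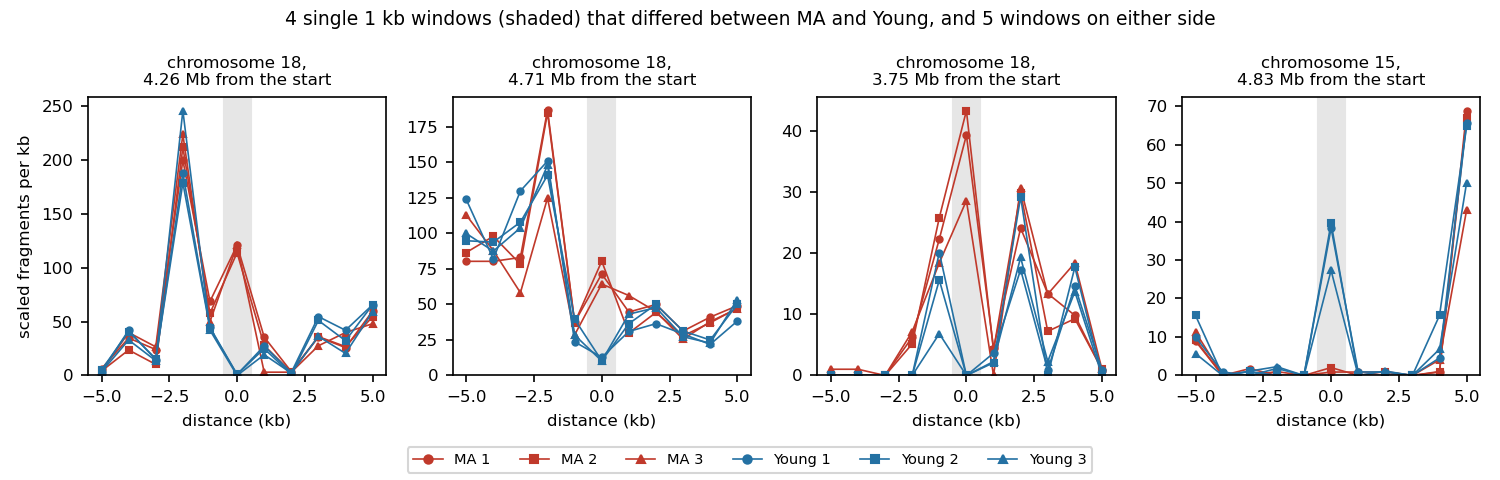
Scaled fragments per kb (y axis) in 4 windows of 1 kb (shaded) and 5 windows on either side (x axis, distance in kb), with 1 line per library. In the 3 windows of chromosome 18 all MA libraries lie above all Young libraries, in that of chromosome 15 all lie below, and the lines of MA and Young intermix in most flanking windows.

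Windows with the opposite direction were found on chromosomes 15 and 18. On chromosome 15, 4830001 to 4831000 had 0.893, 2.06 and 0 fragments in MA and 38.3, 39.6 and 27.3 in Young (log2 fold change -4.31, limma adjusted p = 0.0206). Here 104 unscaled fragments in Young faced 3 in MA, a ratio of 36.2 (95% exact interval 12.1 to 179), and the window passed the filter only through Young. In windows of 5 kb the stretch from 4830001 to 4835000 was the only member called at an adjusted p below 0.01 (3.57, 4.13 and 4.09 against 44.7, 55.3 and 35.3, log2 -3.20, SE 0.294, limma adjusted p = 0.00127), 1 of 5113 members (0.0196%) against 0.0136% of all such windows. It too passed the filter only through Young. This stretch includes the 1 kb window above and is no separate finding. The means were 0.985 in MA and 35.1 in Young in that window, against 3.93 and 45.1 in the whole stretch. From 4831001 to 4834000 the windows of 1 kb had means of at most 0.642 in MA and 0.683 in Young. On chromosome 18 the adjoining windows from 3947001 to 3949000 had the other largest decreases among windows without overlap. The first of them held 34.8, 0 and 0 in MA and 73.9, 74.1 and 54.6 in Young (log2 -4.36, limma adjusted p = 0.357), and the next held 30.4, 0 and 1.02 against 56.6, 48 and 74.0 (log2 -3.90, limma adjusted p = 0.354). MA 1 differed from the other MA libraries in both, and neither passed the test. The outcome turned on this library, since without it both were called at 0.01 (log2 -6.08 with a limma adjusted p of 0.00331, and -5.39 with 0.00865), whereas in the other 13 alternatives neither was below 0.05. The other largest increase without overlap was at 2566001 to 2567000, with 33.0, 14.4 and 41.9 against 0.912, 0 and 1.14 (limma adjusted p = 0.0433), 404 bp before an interval listed with DPP6. It passed the filter only through MA, and was below an adjusted p of 0.05 in 4 of 12 alternatives (highest 0.243). The window of chromosome 15 was so in 9 of 13 (highest 0.384).

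The calls depended on single libraries. Leaving out MA 2 left 0 of the member windows called at 0.01 and 0 over the genome by limma, with 1400 members and 66179 windows in all at an unadjusted p below 0.05. Leaving out Young 2 or Young 3 left 1 member, of 3 and 2 windows in all. Leaving out MA 3 gave 12 members, of 213 windows in all, and without both MA 3 and Young 1 there were 40, of 1285 in all. The number of calls thus moved over the whole genome and not at these ends alone. Over the 14 alternatives tried the first window stayed below an adjusted p of 0.01 in 11, the PRKAG2 window in 8 of 14 and the window at 3751001 in 6 of 13. The highest limma adjusted p of these 3 windows over the alternatives was 0.274, 0.129 and 0.125. Their direction could not readily turn, since the groups do not overlap in them. All 3 were picked by their calls in these same data, so the tallies are descriptions only. In bins of 100 kb, 1 of 300 members was called (0.333%, against 0.0797% of all bins), on chromosome 18 from 4100001 to 4200000. It held 1521, 1436 and 1453 fragments in MA and 2031, 1988 and 1911 in Young (log2 -0.43, SE 0.048, limma adjusted p = 0.00699), so that a whole bin was lower in MA 49685 bp before the first BAGE2 interval. Left-out libraries and other scalings were tried in windows of 1 kb only, so not for this bin or the stretch called in 5 kb. All MA bins were below all Young bins in 32 of the 300 (10.7%, against 9.52% of all bins) and above in 20 (6.67%, against 7.24%).

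The study's own list of age-related differentially methylated intervals was used for positions and gene names, and it was held here only in part. It had been chosen on these same libraries by their age difference, so the directions below describe it and support nothing, and no test was run on it. The part held 1838 distinct intervals, 770 of them on chromosomes 13 to 18 and 165 on chromosome 18. In member windows, which are 1.33% of the placed windows, lay 79 of the 1838. Of these 79, 65 (82.3%) were on chromosome 18, 9 on chromosome 14, 3 on chromosome 15 and 2 on chromosome 16. Chromosome 18 also held 3643 of the 12301 member windows that passed the filter. Each of the 79 is listed with a gene, so these counts cannot be told apart from where annotated genes lie and which part was held. Depth is given below as the mean number of scaled fragments covering a base. By that measure 50 of the 79 were lower in MA (63.3%) and 29 higher, a share like that of the 1838 intervals in all, of which 1158 were lower (63.0%). Ratios are of group means after adding 1 to each.

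On chromosome 18 some genes had intervals of 1 direction only and others of both. All 3 of DNAJB6, all 5 of UBE3C, an E3 ubiquitin ligase, and all 4 of LMBR1, which holds the distant limb enhancer of SHH in an intron, were lower in MA, as were both of RHEB at the far side of the end. The LMBR1 interval at 912307 to 912380 had the largest decrease among the 65 listed intervals of this end, with a depth of 2.73 ± 0.926 in MA and 19.1 ± 5.68 in Young (SD, n = 3, log2 -2.43). RBM33, which codes for an RNA-binding protein, had 10 of 11 intervals lower in MA, the exception being at 1850336 to 1850459 (18.5 ± 2.06 in MA and 6.31 ± 3.30 in Young). The only RBM33 interval listed as promoter, at 1881040 to 1881127, had 31.9 ± 4.15 and 62.7 ± 5.44. VIPR2, a receptor of vasoactive intestinal peptide, had 4 of 5 intervals higher in MA, with log2 ratios up to 1.13.

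Directions were also mixed within ESYT2, near the tip, with 1 interval lower and 1 higher, and within 3 genes farther in. DPP6, an auxiliary subunit of voltage-gated potassium channels, had 3 intervals lower in MA, all between 2472878 and 2484792, and 4 higher, all from 2515009 on. Its interval at 2557316 to 2558182, with 21.0 ± 2.18 in MA and 2.70 ± 0.621 in Young (log2 2.57), had the largest increase among the 65. PRKAG2 held the most intervals, 17, with 7 lower and 10 higher in MA, from a log2 ratio of -2.11 at 4764670 to 4764924 (6.31 ± 0.506 against 30.6 ± 1.90) to 2.41 at 4714086 to 4714586 (24.6 ± 3.13 against 3.81 ± 1.74). The latter is the stretch inside the window called above. The intervals listed with BAGE2 numbered 6, with 3 in each direction.

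Of the intervals at the other ends, those of SPTLC1, a subunit of serine palmitoyltransferase, had the largest decrease among the 9 listed at the end of chromosome 14 (3567519 to 3567577, 3.88 ± 2.24 against 33.4 ± 9.91, log2 -2.82). That of LPL, the lipase that clears triglycerides from lipoproteins, had the largest increase among these 9 (3840969 to 3841066, 14.6 ± 0.732 against 3.87 ± 0.796, log2 1.68). ROR2, a receptor tyrosine kinase for Wnt5a, had 2 of 4 intervals in each direction. On chromosome 15 the interval of EPC2 was lower in MA (111056 to 111160, 5.94 ± 0.405 against 25.3 ± 2.67) and that of GTDC1 higher (4343670 to 4343880, 25.5 ± 5.00 against 1.51 ± 1.34, log2 3.40). On chromosome 16 the TRIO interval at 3079698 to 3079956 had 11.9 ± 2.49 against 4.66 ± 0.930, and that of ENSSSCG00000016785 had 17.2 ± 1.5 against 28.8 ± 2.70. No interval of the part held lay in the ends of chromosomes 13 or 17, where no window of 1 kb was called at an adjusted p below 0.05 either. The same held for windows of 1 kb on chromosome 16.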

How the data were processed

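Per the labels and the study's methods, MeDIP DNA was sequenced in read pairs, and the authors filtered the reads, aligned them with SOAP2 to Sscrofa9.2 with up to 4 mismatches and dropped ambiguous reads. The methods also state that reads of a library placed at the same location were taken as a single read. The deposited values are the chromosome, start and end position of each fragment, not counts. The files still hold intervals that occur more than once, with 1.76% to 2.28% of the fragments of a library, and these were kept here.

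Fragments were counted here by midpoint in 1 kb windows and scaled to the library's total. Chromosome lengths were the highest fragment ends. Group labels gave age and replicate. Ends were compared with interiors and distal ends by exact two-sided sign-flip tests over 6 libraries, and ages by exact permutation of 3 against 3. Windows with a mean scaled count of at least 10 were tested over the genome by limma-trend (limma 3.58.1, R 4.3.3) after log2(count + 1). P values were adjusted by Benjamini and Hochberg, and 0.01 was the threshold. Other windows, filters, pseudocounts, scalings, end lengths and left-out libraries were tried. The scripts were tested on simulated data. Python 3.11.15, NumPy 2.4.6, SciPy 1.17.1, Numba 0.67.0 and Matplotlib 3.10.9 were used. Totals of 34801285 to 44341673 fragments set the depth, and intervals cover counting error only.

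The members, lists and tests were chosen with earlier results of these data known. Named windows were those called at 0.01 and the 3 largest changes in each direction without overlap, and for each end the highest window and the highest and lowest filled 100 kb bin. Calls in 5 kb and 100 kb windows were named after their values were seen. Genes were named where the study's list gave 3 or more intervals, an interval in a named window or the largest ratio of an end. Genes that flank a named bin or window were named as landmarks, and ESYT2 and RHEB also for their intervals, after their values were seen. Columns of the list with the study's own comparison were not used.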

Additional observations from a re-analysis of the deposited data

How the results depend on the processing

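Tests of the ends against the distal ends and of the first against the fifth megabase kept the direction of their mean over 6 chromosomes and their side of 0.05 under all alternatives that give a p, although the latter mean moved from 0.329 to 0.192 without empty windows and to 0.583 with medians (1.215 on chromosome 15 and 0.818 on 16). Between ages the means kept their direction, but exact tests of 3 against 3 cannot cross 0.05. The mean age difference of the ends, -0.016 (p = 0.500), ran from -0.006 scaled to the median window (p = 0.9) to -0.125 with medians (p = 0.200), by exact permutation over all 6 libraries, and from -0.033 to -0.002 with 1 library left out. Relative to the interior it moved from -0.038 to -0.058 with ends of 2 Mb. The mean difference from the interior turned to 0.188 (log2) with medians over windows, was -0.055 without windows over 1000, -0.207 with ends of 2 Mb and -0.083 with 10 Mb, and was -0.131 to -0.118 with 1 library left out. By chromosome it reached -0.432 on 13 with ends of 1 Mb, -0.058 without windows over 1000 and -0.910 with ends of 2 Mb on 16, and -0.583 on 17 with 10 Mb. The same medians turned the difference from the interior on chromosomes 13 (0.069) and 16 (0.125), the age difference of chromosome 16 (-0.155) and the age difference relative to the interior on chromosomes 13 (0.010) and 18 (0.006). Ends of 1 Mb turned chromosome 14 to -0.061 against its interior and to -0.010 for age relative to it. The age difference of chromosome 16 was -0.013 with ends of 2 Mb, -0.003 with 10 Mb and -0.019 with TMM factors, and relative to the interior it was 0.006 without windows over 1000. The first against the fifth megabase of chromosome 17 was -0.021 without empty windows. With 1 library left out, the age difference ran from -0.026 to 0.036 on chromosome 16, from -0.067 to 0.009 on 17 and from -0.098 to 0.028 on 18, and relative to the interior from -0.125 to 0.032 on 18. The age difference of the level was -0.067 on chromosome 13, 0.031 on 14 and -0.096 on 15 without MA 3. Without Young 1 it was -0.001, 0.068 and -0.026. Their causes were not tested, and none of these age values had passed a test.

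The count of member windows called, 3, was 2 with TMM factors or a pseudocount of 0.5 (15 and 17 over the genome, against 25), 3 with repeated intervals counted once (of 25), 8 with a pseudocount of 5 (of 79), 14 without the filter (of 178), 19 at an adjusted p below 0.05 (of 209), and 1 each in windows of 5 kb (of 52) and 100 kb (of 18). It was 0 at a mean of at least 30 and 0 in windows of 500 bp, where limma also called 0 over the genome, with 624 of 5277 and 1580 of 14036 members at an unadjusted p below 0.05, against 30139 of 411199 and 74444 of 1071387 windows in all. The 624 come from a new fit to the deep windows, and 663 of the same 5277 passed in the fit to all tested windows. The count ran from 0 to 12 with 1 library left out, and was 40 without MA 3 and Young 1, an alternative chosen after seeing the data. Same-numbered libraries did not deviate together (r of -0.217, 0.076 and -0.189 over all tested 1 kb windows), so the numbers were not taken as pairs. With a replicate block, 0 members were called and 0 over the genome by limma (1144 members and 55970 windows in all at an unadjusted p below 0.05), and the mean age difference of the ends had an exact sign-flip p of 0.75 and that relative to the interior 0.25, the smallest p that 3 pairs allow.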
